A study of Homo sapiens with 17 samples.

Results

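Amino acid transporters were examined in human breast cell lines treated with Maraviroc or with DZH_2. They were taken by symbol: every probe set with a single gene symbol in the families SLC1A, SLC6A, SLC7A, SLC36A, SLC38A or SLC43A, together with SLC3A1 and SLC3A2. This gave 59 genes with 1 probe set each, of 17687 genes measured. MDA-MB-231 is a line of mesenchymal character derived from a triple-negative breast cancer, and MCF10 is a name of non-tumorigenic mammary epithelial cells. Maraviroc is a drug licensed against HIV, and DZH_2 is a compound known here only by that code name.

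The study held 17 Affymetrix arrays. For MDA-MB-231 there were 2 arrays each of Maraviroc at IC20, Maraviroc at IC50, DZH_2 at IC20, DZH_2 at IC50, DMSO and ethanol, and 1 array of untreated cells. For MCF10 there was 1 array each of DZH_2 at IC20, DZH_2 at IC50, DMSO and no treatment. Cells were plated for 24 h and then exposed for 48 h. The labels give doses as IC20 and IC50, a concentration that inhibits by 20% or by 50%; their molar values were not given in the sources used here. Ethanol was taken as the solvent of Maraviroc and DMSO as that of DZH_2. All values are log2 signals, so a difference of 1 is a doubling. Nothing in the labels says that replicates came from separate cultures, and p-values then measure the spread of these arrays alone, and that spread may be technical.

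Amino acid transporters of the plasma membrane work as sodium-coupled pumps, which concentrate a few amino acids in the cell, and as exchangers, which trade those against others. The SLC7 light chains are such exchangers, and most of them reach the cell surface only when joined to a heavy chain of the SLC3 family. The same families hold carriers of the lysosome, and the SLC6 family also carries taurine, creatine, glycine and the monoamine transmitters. In proliferating and in cancer cells the glutamine carrier SLC1A5, the leucine carrier SLC7A5 with its heavy chain SLC3A2, and the cystine-glutamate exchanger SLC7A11 are the best known members. Many of them are targets of ATF4, the transcription factor switched on by amino acid shortage.

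Not all of these genes gave a signal. A mean of a group under the 75th percentile of 612 negative control probes, which lay between 5.64 and 6.60 on the 17 arrays, is called near the negative controls here. By this measure 25 of the 59 transporters (42.4%, against 28% of all genes) were near the negative controls in all 11 groups. Another 23 (39%, against 43.3% of all genes) lay above them in all groups, and 11 varied. The 3 SLC43 genes were above in every group, as were 5 of 12 SLC38 genes, 5 of 18 SLC6 genes, 3 of 8 SLC7 light chains, 2 of 5 cationic carriers of SLC7, 2 of 4 proton-coupled SLC36 carriers and 1 of 5 glutamate carriers of SLC1. Of the 2 heavy chains, SLC3A2 was above in every group and SLC3A1 near the negative controls in every group. SLC1A5 was above throughout, while SLC1A4, its close relative, was above in MDA-MB-231 and varied in MCF10.

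The spread between replicates of the 59 transporters was 0.290 for DMSO, 0.358 for Maraviroc IC20, 0.378 for DZH_2 IC50, 0.445 for DZH_2 IC20, 0.488 for ethanol and 0.495 for Maraviroc IC50 (pooled SD of 2 arrays a group). Over all genes it was 0.546 for Maraviroc IC50 and between 0.277 and 0.366 in the other groups. The limma fit takes a common spread per gene from all 6 groups. Standard errors and p-values at Maraviroc IC50 may therefore be too small, and those of the other groups too large. The Maraviroc IC50 arrays stood apart from the other 11 arrays of MDA-MB-231: the interquartile range of their log2 signals was 4.07 and 4.05, against 4.21 to 4.65, and the mean of their hybridisation controls was 12.6 on both, against 11.1 to 11.9. The 75th percentile of their negative controls was 6.42 and 6.46, against 5.64 to 6.27. The median of their positive controls was 11.99 and 12.01, against 12.41 to 12.85. These features move with the treatment. Their part in the results for Maraviroc IC50, also for transporters near the negative controls, was not tested.

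Maraviroc at IC50 raised 7 transporters and lowered 4 in MDA-MB-231. Among those that rose were the exchanger subunits SLC7A6 and SLC3A2, the taurine carrier SLC6A6, the creatine carrier SLC6A8, and SLC38A6 and SLC38A12 of the glutamine family. The glutamine carrier SLC38A1, the glycine carrier SLC6A9 and SLC43A3 were among those that fell. These 11 genes (18.6% of 59) passed an adjusted p of 0.05 in limma, in a comparison in which 27.0% of all genes passed. The percentage passing was 12 up and 15.0 down for all genes, and 11.9 up and 6.78 down for the transporters. The median log2 difference was 0.19 over the transporters and 0.11 over all genes, and 38 transporters were higher and 21 lower than in ethanol. With each array centred on its median, 9 transporters passed upward and 3 downward, and the median of all genes moved from 0.11 to 0.28. The share of all genes that passed on centred arrays is not given here, so this change shows nothing particular to the transporters. In RNA from a whole culture, fewer cells expressing a gene and less of its RNA per cell cannot be told apart.

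SLC7A6 (Entrez 9057), a light chain that exchanges arginine for neutral amino acids, showed the largest difference among the transporters. Its log2 signal was 13.26 and 12.05 on the Maraviroc IC50 arrays and 9.0 and 9.17 on the ethanol arrays. The remaining MDA-MB-231 arrays lay between 8.29 (DMSO) and 9.84 (DZH_2 IC20), so both Maraviroc IC50 arrays stood above all 11 others. The difference from ethanol was 3.57 ± 0.40 (SE), an 11.9-fold rise (limma, adjusted p = 5.03e-05). SLC3A2 (Entrez 6520), the heavy chain known as CD98 that SLC7A6 needs at the membrane, read 15.88 and 16.33 against 15.46 and 13.83 in ethanol. The Maraviroc values lay above both ethanol values, but the ethanol arrays were 1.62 apart. SLC3A2 rose by 1.46 ± 0.50 (2.75-fold, limma, adjusted p = 0.0451). Without ethanol replicate 2 the difference was 0.64 and the call was lost. It was also lost without Maraviroc IC50 replicate 2, in a fit of the groups alone and with array weights, and was kept under 8 of 12 alternatives.

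**Figure D1:**
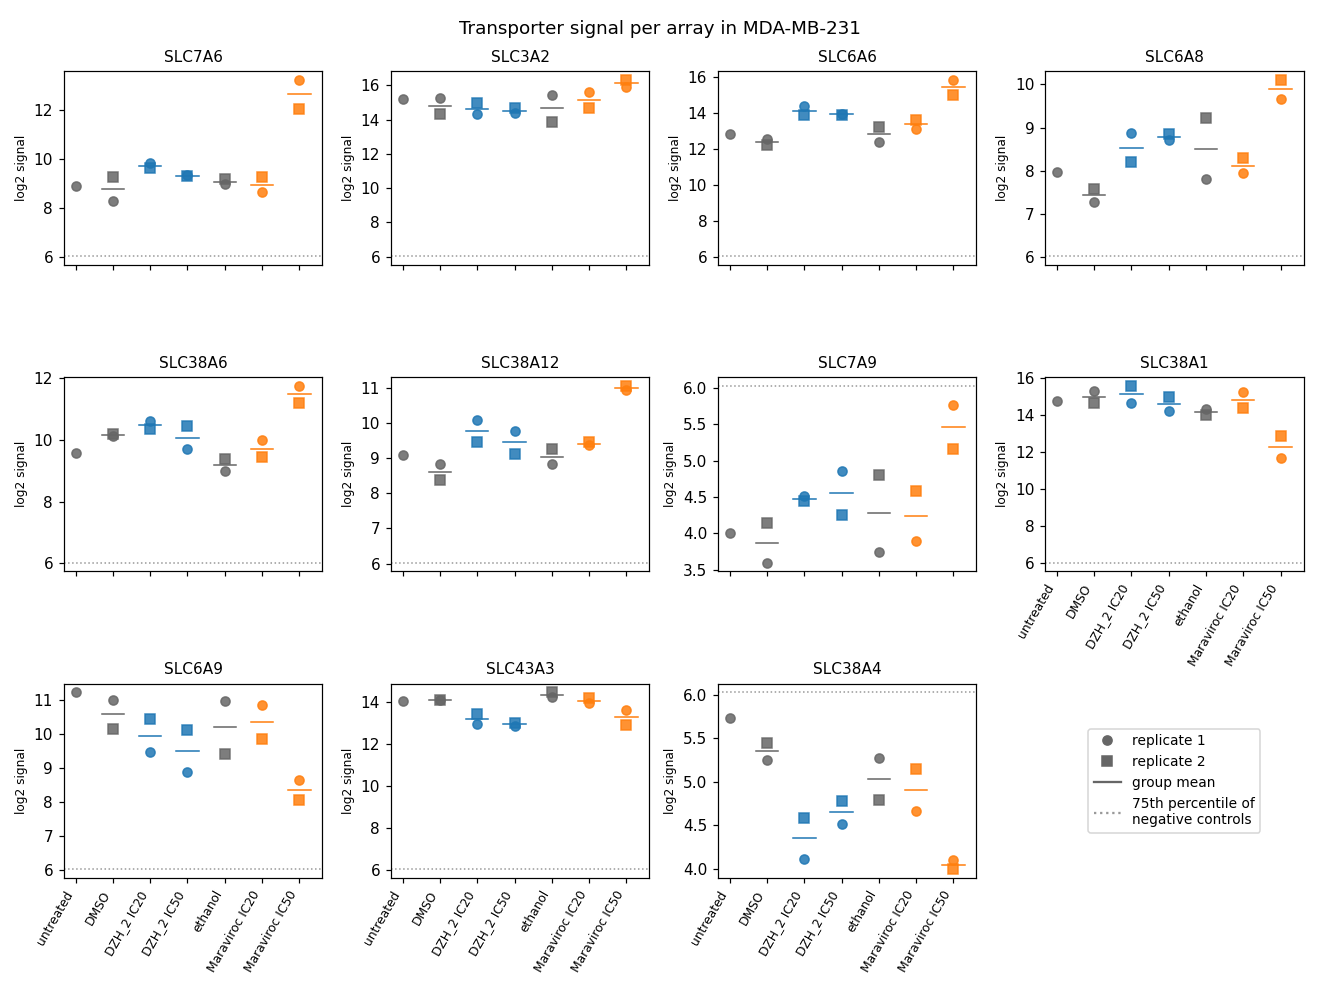
Log2 signal (vertical axis, a separate scale in each panel) of the 11 transporters that passed the threshold at Maraviroc IC50 against ethanol, on the 13 arrays of MDA-MB-231. Circles are replicate 1, squares replicate 2, short lines group means, and the dotted line is the mean 75th percentile of the negative controls. In each panel both Maraviroc IC50 points lie to the same side of both ethanol points, and SLC7A9 and SLC38A4 lie under the dotted line on every array.

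Of the other 7 light chains of SLC7, only SLC7A9 passed. SLC7A9, which joins SLC3A1 to carry cystine and dibasic amino acids in kidney, read 5.77 and 5.16 against 3.74 and 4.81, a rise of 1.18 ± 0.39 (limma, adjusted p = 0.0418). All of these values are near the negative controls. The SLC7A9 call was lost under 5 of 11 alternatives: the difference was 0.65 (adjusted p = 0.341) without ethanol replicate 1 and 0.88 (adjusted p = 0.175) without Maraviroc IC50 replicate 1, and it did not pass after quantile normalization, in a fit of the groups alone or with array weights. SLC7A5, the leucine exchanger, read 13.86 and 13.57 against 15.31 and 13.73, a difference of -0.80 that did not pass. For SLC7A11, which brings in cystine for glutathione, the values were 12.59 and 12.33 against 13.18 and 11.42. Its difference was 0.16, and the ethanol arrays lay on either side of the Maraviroc arrays. None of the 5 cationic carriers passed: SLC7A1, the main arginine and lysine importer, read 13.27 and 11.42 against 13.96 and 13.19 (-1.23 ± 0.53, limma, adjusted p = 0.107).

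The window of 250 bases before the transcription start was read for the members listed in the RefSeq promoter table (GRCh38.p14), 45 of 59. Both strands were searched for TGACNNNGC, the core of the antioxidant response element bound by NRF2, and for TGATGNAA, the core of the C/EBP-ATF response element bound by ATF4. The first was found in 11% of 27305 promoters in the table and in 4 of 45 transporters (8.89%), which were SLC7A6, SLC3A2, SLC7A1 and SLC7A7. The second was found in 3.19% of all promoters and in 1 of 45 transporters (2.22%), SLC1A3, a glutamate carrier. Of the 11 genes past the threshold 9 were in the table, and 2 of them, SLC7A6 and SLC3A2, held the antioxidant core. The windows of these 2 exchanger subunits are shown with that of SLC7A1, which holds the core and did not pass, with the core in capitals. A match of letters is a description of the sequence only. They are read 5′ to 3′ on the gene's strand, from chr16:68264276-68264525 (plus strand) for SLC7A6, chr11:62881449-62881698 (plus strand) for SLC3A2 and chr13:29595689-29595938 (minus strand) for SLC7A1.
SLC7A6: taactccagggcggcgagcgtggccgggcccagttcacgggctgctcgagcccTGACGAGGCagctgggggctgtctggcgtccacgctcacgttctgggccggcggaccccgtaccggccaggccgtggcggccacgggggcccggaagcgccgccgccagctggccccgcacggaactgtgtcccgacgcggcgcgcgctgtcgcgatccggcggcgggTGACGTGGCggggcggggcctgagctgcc
SLC3A2: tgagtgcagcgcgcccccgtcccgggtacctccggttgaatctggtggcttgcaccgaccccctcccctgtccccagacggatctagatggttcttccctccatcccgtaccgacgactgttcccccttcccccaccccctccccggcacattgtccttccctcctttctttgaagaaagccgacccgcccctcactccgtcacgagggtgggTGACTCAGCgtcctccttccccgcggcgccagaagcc
SLC7A1: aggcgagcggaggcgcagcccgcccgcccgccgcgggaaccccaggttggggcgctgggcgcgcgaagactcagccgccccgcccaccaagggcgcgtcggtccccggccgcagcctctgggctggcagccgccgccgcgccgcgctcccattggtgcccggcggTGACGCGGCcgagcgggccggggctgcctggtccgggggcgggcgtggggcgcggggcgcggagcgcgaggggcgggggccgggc
SLC7A6 has the core at 197 to 189 and at 29 to 21 bases before the start, SLC3A2 at 37 to 29 and SLC7A1 at 85 to 77.

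Among the 18 SLC6 genes 2 rose and 1 fell at Maraviroc IC50. SLC6A6 (Entrez 6533) imports taurine, an amino sulfonic acid that cells use as an osmolyte. It read 15.85 and 15.02 with Maraviroc IC50 and 12.39 and 13.24 with ethanol, and the 9 other arrays of MDA-MB-231 lay between 12.21 and 14.36. The rise was 2.61 ± 0.36 (6.13-fold, limma, adjusted p = 2.07e-04). SLC6A8 (Entrez 6535), the creatine importer, read 9.67 and 10.11 against 7.81 and 9.22, a rise of 1.37 ± 0.40 (2.59-fold, limma, adjusted p = 0.023). Its ethanol arrays were far apart. The difference was 0.67 without ethanol replicate 1 and 1.15 without Maraviroc IC50 replicate 2, and the call was lost in both. It was also lost in a fit of the groups alone and with array weights, and was kept under 8 of 12 alternatives. SLC6A9, the glycine carrier GlyT1, read 8.64 and 8.05 against 10.99 and 9.41. It fell by 1.85 (SE 0.58, 3.61-fold, limma, adjusted p = 0.0302). The difference was -1.06 without ethanol replicate 1 and -1.56 without Maraviroc IC50 replicate 2, and the call was lost in both. It was also lost after quantile normalization, in a fit of the groups alone and with array weights, and was kept under 7 of 12 alternatives.

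The SLC38 family, sodium-coupled carriers of glutamine and other small neutral amino acids, had 2 rises and 2 falls in 12 genes. SLC38A6 (Entrez 145389) read 11.75 and 11.21 with Maraviroc IC50 and 8.99 and 9.38 with ethanol. Both treated arrays lay above the 11 others, whose highest value was 10.60, and the rise was 2.30 ± 0.32 (4.92-fold, limma, adjusted p = 2.33e-04). SLC38A12 (Entrez 54868) read 10.95 and 11.06 against 8.84 and 9.26, again above the 11 others (8.38 to 10.09). It rose by 1.95 ± 0.32 (3.86-fold, limma, adjusted p = 6.61e-04). SLC38A1 (Entrez 81539), a main glutamine importer of dividing cells, read 11.69 and 12.87 against 14.32 and 13.96, below every other MDA-MB-231 array. It fell by 1.86 (SE 0.46, 3.63-fold, limma, adjusted p = 0.00948), and the call was lost without ethanol replicate 1 or without Maraviroc IC50 replicate 1. SLC38A2, its close relative and a known target of ATF4, did not pass: it read 14.17 and 15.49 against 14.28 and 14.79. SLC38A4 fell from 5.28 and 4.79 to 4.10 and 4.0 (-0.99 ± 0.29, limma, adjusted p = 0.0224), with all values near the negative controls. The call was lost under 5 of 11 alternatives, at -0.74 (adjusted p = 0.177) without ethanol replicate 1 and -0.94 (adjusted p = 0.0601) without Maraviroc IC50 replicate 2, and also on centred arrays, in a fit of the groups alone and with array weights.

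SLC43A3, which the family name places beside leucine carriers but which is known to carry purine bases, read 13.60 and 12.91 against 14.23 and 14.45. It fell by 1.08 (SE 0.29, 2.12-fold, limma, adjusted p = 0.0138). The call was lost without ethanol replicate 2 or Maraviroc IC50 replicate 2, and in a fit of the groups alone. The neutral exchangers SLC1A5 and SLC1A4 were -1.29 ± 0.48 and -1.04, and neither passed. For SLC1A5, the values were 12.77 and 12.63 against 14.29 and 13.70, which do not overlap. No glutamate carrier of SLC1 and no SLC36 gene passed. SLC36A1, a proton-coupled carrier of the lysosome, was 9.87 on one Maraviroc IC50 array and 7.82 on the other, with 7.36 and 8.34 in ethanol. Of the 11 calls against ethanol, SLC7A6, SLC6A6, SLC38A6 and SLC38A12 passed under all 12 alternatives tried.

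**Figure D2:**
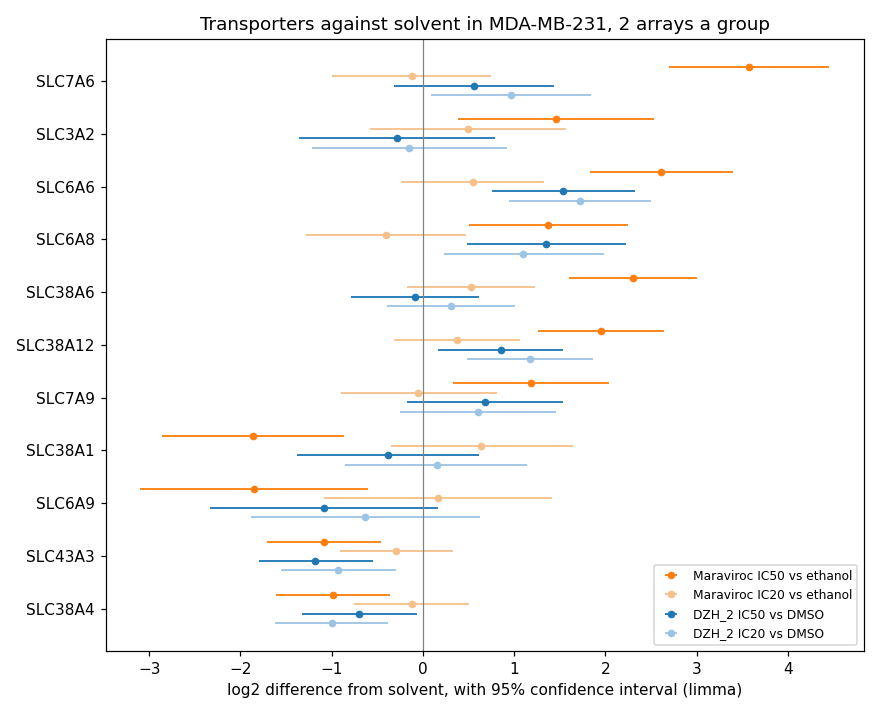
Log2 difference from the compound's own solvent (horizontal axis, points) with its 95% confidence interval from limma (lines) for the 11 transporters past the threshold at Maraviroc IC50, in the 4 comparisons with a solvent, 2 arrays a group. SLC7A6 stands at 3.57 for Maraviroc IC50 and below 1 for the 3 other treatments. SLC6A6, SLC6A8, SLC38A12, SLC43A3 and SLC38A4 have intervals clear of 0 for Maraviroc IC50 and for DZH_2 at either dose.

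Maraviroc at IC20 passed no transporter and no gene at all (0%). At an unadjusted p under 0.05 there were 0 transporters and 309 genes by limma. The transporters' differences from ethanol lay between -0.53 and 0.88, with a median of 0.05 (-0.01 over all genes), and 31 were higher and 28 lower. The smallest p belonged to SLC6A15, a carrier of branched-chain amino acids and proline, at 0.62 ± 0.32, to the cationic carrier SLC7A2 at -0.53 ± 0.28, and to SLC38A6 at 0.53 ± 0.32. SLC6A15 is near the negative controls in MDA-MB-231.

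Between the doses of Maraviroc, 11 transporters differed at IC50 from IC20, 7 upward and 4 downward, where 26.7% of all genes did. This comparison shares the IC50 arrays with the one against ethanol, so it is no separate support for it. SLC7A6 read 8.64 and 9.28 at IC20 and 13.26 and 12.05 at IC50, a difference of 3.70 ± 0.40 (13.0-fold, limma, adjusted p = 4.05e-05). SLC6A6 was 2.07 ± 0.36 higher at IC50, SLC6A8 1.78 ± 0.40, SLC38A6 1.77 ± 0.32, SLC38A12 1.58 ± 0.32, SLC7A9 1.23 ± 0.39 and SLC38A10 0.74 ± 0.25 (limma, adjusted p from 0.00108 to 0.0425). SLC38A1 read 15.22 and 14.35 at IC20 and 11.69 and 12.87 at IC50. It was lower at IC50 by -2.50 ± 0.46 (5.67-fold, limma, adjusted p = 0.00155). SLC6A9 differed by -2.02 ± 0.58 (limma, adjusted p = 0.0204) and SLC38A4 by -0.86 ± 0.29 (adjusted p = 0.0418). SLC1A5, the glutamine exchanger known as ASCT2, fell from 14.39 and 14.01 to 12.77 and 12.63 (-1.5 ± 0.48, 2.84-fold, limma, adjusted p = 0.0342). Centred arrays gave 11 calls up and 2 down among the transporters, and the share of all genes on centred arrays is not given here. The SLC1A5 call was lost without any of the 4 arrays compared (-1.69 to -1.31), on centred arrays and with array weights. SLC38A4 was likewise lost without any of the 4, with -0.62 (adjusted p = 0.277) without Maraviroc IC20 replicate 2. Leaving out replicate 1 of Maraviroc IC20 lost the calls of SLC6A8 (1.6, adjusted p = 0.0581), SLC6A9 (-1.5, adjusted p = 0.182), SLC7A9 (0.88) and SLC38A10 (0.67). Those of SLC6A9 and SLC38A10 were lost also without Maraviroc IC50 replicate 2, that of SLC7A9 without Maraviroc IC50 replicate 1, and that of SLC38A10 without Maraviroc IC20 replicate 2. SLC7A6, SLC6A6, SLC38A6, SLC38A12 and SLC38A1 passed under all 11 alternatives.

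Few transporters passed the threshold under DZH_2 in MDA-MB-231, and few of all genes did. At IC20, SLC6A6 alone passed (1.69% of 59, where 0.871% of all genes passed, 0.435% up and 0.435% down). It read 14.36 and 13.86 with DZH_2 IC20 against 12.56 and 12.21 in DMSO, which do not overlap, and rose by 1.72 ± 0.36 (3.30-fold, limma, adjusted p = 0.0495). The call sits at the threshold and was lost under 6 of 13 alternatives: without any of the 4 arrays compared, after quantile normalization, and with the replicate number as a block (adjusted p = 0.051). Next by p were SLC38A12 at 1.17 ± 0.32 (limma, adjusted p = 0.114) and SLC38A4 at -1.0 ± 0.29 (adjusted p = 0.138), and neither passed. At an unadjusted p under 0.05 in limma there were 7 transporters (11.9% of 59) and 2118 of all 17687 genes.

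At DZH_2 IC50 no transporter passed, where 1.57% of all genes did (0.582% up, 0.984% down). At an unadjusted p under 0.05, limma gave 7 transporters (11.9% of 59) and 2675 of all 17687 genes. SLC6A6 read 13.96 and 13.89 (1.54 ± 0.36 from DMSO, limma, adjusted p = 0.0557), and its arrays lay above all 5 DMSO, ethanol and untreated arrays (12.21 to 13.24). SLC43A3 read 12.85 and 12.99 against 14.10 and 14.09, a difference of -1.18 ± 0.29 (adjusted p = 0.0657). SLC6A8 read 8.72 and 8.85 against 7.28 and 7.59, a difference of 1.35 ± 0.40 (adjusted p = 0.118). None of these 3 genes reached the threshold. In each, both DZH_2 arrays lay to one side of both DMSO arrays. The same held for transporters with small differences, SLC3A1 (-0.22) and SLC36A2 (0.24) among them, so it does not set the 3 genes apart. Fits that left out the Maraviroc IC50 arrays, or used only the groups compared, called 2 and 3 transporters here. The shares of all genes called in those fits are not given.

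The doses of DZH_2 gave 0 calls among the transporters and over all genes (0%), with 3 transporters and 721 genes at an unadjusted p under 0.05 in limma. The smallest p were those of SLC7A8 (0.81 ± 0.31 higher at IC50), SLC7A10 (0.81 ± 0.31) and SLC6A4 (0.64 ± 0.28), each with an adjusted p of 0.999. SLC7A8 and SLC7A10, light chains for neutral amino acids, were near the negative controls in all groups.

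Maraviroc and DZH_2 were set against each other at the same inhibitory level, each as its difference from its own solvent. At IC50, 2 transporters differed (3.39% of 59, where 6.17% of all genes did, 4.02% higher and 2.15% lower for DZH_2), both lower for DZH_2. SLC7A6 differed by -3.01 ± 0.57 (95% confidence interval -4.25 to -1.78, limma, adjusted p = 0.00892): it read 9.35 and 9.31 with DZH_2 and 13.26 and 12.05 with Maraviroc. SLC38A6 differed by -2.39 ± 0.46 (interval -3.38 to -1.40, limma, adjusted p = 0.00906), with 9.70 and 10.45 under DZH_2 and 11.75 and 11.21 under Maraviroc. Without DMSO replicate 2 the SLC7A6 difference was -2.54 (adjusted p = 0.0523), and that of SLC38A6 passed under all 15 alternatives. The intervals of other transporters remained wide. For SLC6A6 the interval ran from -2.18 to 0.03 and for SLC3A2 from -3.26 to -0.22 (limma, adjusted p = 0.27 and 0.182). That of SLC6A8 ran from -1.26 to 1.22 and that of SLC43A3 from -0.97 to 0.79, so a difference of more than 1 in either direction lies within the interval of SLC6A8.

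At IC20 no transporter and no gene differed between the compounds (0%), with 3 transporters and 1273 genes at an unadjusted p under 0.05 in limma. The smallest p belonged to SLC6A8 (1.5 ± 0.57, adjusted p = 0.601), SLC38A10 (0.86 ± 0.35, adjusted p = 0.635) and SLC6A6 (1.18 ± 0.51, adjusted p = 0.669). The solvents did not differ in any gene past the threshold (0%), with 3 transporters and 1352 genes at an unadjusted p under 0.05. SLC38A6 was -0.98 ± 0.32 in ethanol relative to DMSO, SLC6A8 1.08 ± 0.40 and SLC7A11 -1.29 ± 0.56 (limma, adjusted p = 0.565, 0.594 and 0.633). These differences bear on the comparison of the compounds, since each is measured from its own solvent.

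The spread within groups was itself uneven among the transporters. The differences between the 2 arrays of a group are described for 8 transporters known as ATF4 targets, SLC1A4, SLC1A5, SLC3A2, SLC6A9, SLC7A1, SLC7A5, SLC7A11 and SLC38A2, chosen after their values were seen. In ethanol, 7 of the 8 were higher on replicate 1, 5 of them by at least 1, with a median of 1.58. SLC7A11 read 13.18 on replicate 1 and 11.42 on replicate 2, SLC7A5 15.31 and 13.73, and SLC1A4 9.74 and 8.15. In Maraviroc IC20 all 8 were higher on replicate 1 (median 0.88), and in DMSO likewise (median 0.63). At Maraviroc IC50 only 5 of the 8 were higher on replicate 1 (median 0.19). The order was the other way in DZH_2: at IC50 all 8 were higher on replicate 2 (median -0.75), and at IC20 6 of them were (median -0.81). SLC1A4 read 7.61 and 10.07 on the DZH_2 IC20 arrays, and SLC7A5 13.33 and 14.92.

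The ATF4 response list, 29 other genes known as targets or partners of ATF4, differed in the same order in ethanol, Maraviroc IC20 and both doses of DZH_2. The median difference of the list, replicate 1 minus replicate 2, was 0.16 in DMSO and -0.23 at Maraviroc IC50. In ethanol 16 of the 29 genes were higher on replicate 1 by at least 1 and 0 on replicate 2. In DZH_2 IC20 19 were higher on replicate 2 by at least 1 and 0 on replicate 1. ASNS, asparagine synthetase, read 14.76 and 11.93 in ethanol, 9.40 and 14.70 in DZH_2 IC20 and 10.26 and 13.26 in DZH_2 IC50. In DMSO it read 15.20 and 14.96 and in untreated cells 15.02. Over all genes the percentage that differed between replicates by at least 1 was 3.63 in ethanol and 5.47 in DZH_2 IC20, and over the 59 transporters it was 11.9 and 6.78. The standard errors of these 8 transporters include this spread. SLC1A4, for which the error was 0.72 between 2 groups, passed in none of the comparisons.

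**Figure D3:**
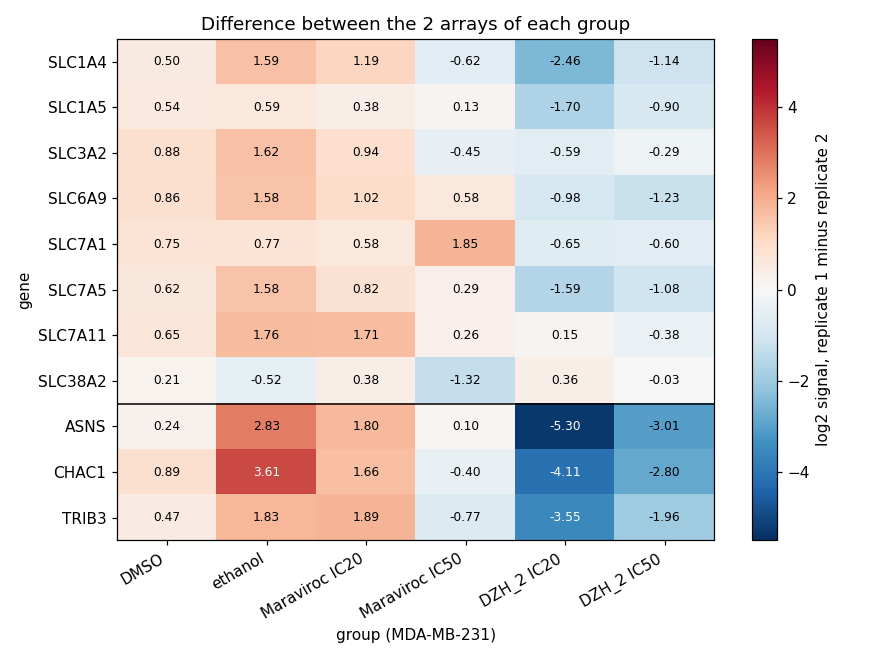
Difference in log2 signal between replicate 1 and replicate 2 (colour and printed value) for 8 transporters known as ATF4 targets and, below the line, 3 other ATF4 targets, in the 6 replicated groups of MDA-MB-231. Ethanol and Maraviroc IC20 are mostly red, with SLC7A11 at 1.76 in ethanol, and the DZH_2 columns mostly blue, with ASNS at -5.30 at IC20.

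The other genes of the pathway were counted in lists of known function, and each count at Maraviroc IC50 stands beside the 12% of all genes that rose and the 15.0% that fell. Of 29 measured genes of the ATF4 response, 7 rose and 5 fell at Maraviroc IC50 (median 0.02). The 4 smallest p were those of CEBPB at 2.12 ± 0.31, DDIT3 at 4.04 ± 0.61, SESN2 at 1.87 ± 0.31 and PPP1R15A at 2.69 ± 0.46, a stress-induced set that holds transcription factors, a leucine sensor and a phosphatase subunit. Of those that fell, named after their values were seen, PHGDH and PSAT1, enzymes of serine synthesis, were -3.48 ± 0.77 and -3.43 ± 1.03, and the tRNA exporter XPOT was -2.61 ± 0.45 (limma, adjusted p = 0.00478, 0.0261 and 0.000987). DDIT3 (CHOP) read 9.41 and 10.13 against 6.42 and 5.04. ASNS, the enzyme that makes asparagine, went the other way on the same arrays, at 9.78 and 9.69 against 14.76 and 11.93, and did not pass (-3.61 ± 1.40, limma, adjusted p = 0.0772).

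Of 38 genes of amino acid sensing by mTORC1, 8 rose and 2 fell (median 0.24), in all about the share of all genes that passed (27.0%). FLCN, which acts on the Rag GTPases, rose by 2.59 ± 0.24, the GATOR2 subunit SEC13 by 1.76 ± 0.30 and the Rag GTPase RRAGA by 1.41 ± 0.25. SLC38A9, the lysosomal carrier that reports arginine to mTORC1, read 6.53 and 6.81 against 6.94 and 7.79 and did not pass (-0.69 ± 0.31, limma, adjusted p = 0.125). Among 18 genes of cystine and glutathione, 5 rose and 5 fell, where 12% and 15.0% of all genes did. Glutathione reductase GSR rose by 1.73 ± 0.26, thioredoxin reductase TXNRD1 by 1.95 ± 0.31 and the NRF2 inhibitor KEAP1 by 1.51 ± 0.25, while GSTP1 was -1.51 ± 0.25.

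Of 14 enzymes that use or make glutamine and glutamate, 6 fell and 1 rose (median -0.87), where 15.0% of all genes fell and 12% rose. Glutamate dehydrogenase GLUD1 was -2.62 ± 0.29, and the glutamine-consuming enzymes of pyrimidine synthesis CTPS1 and CAD were -2.04 ± 0.42 and -1.32 ± 0.30. Glutamine synthetase GLUL, which makes glutamine, rose by 1.86 ± 0.45. Against the same shares, 6 of 19 genes of amino acid breakdown rose and 1 fell, with arginase ARG2 at 2.66 ± 0.50, CSAD, an enzyme of taurine synthesis, at 1.81 ± 0.41, ASL at 1.19 ± 0.25 and the branched-chain aminotransferase BCAT1 at -2.53 ± 0.49. Of 24 other amino acid carriers and partners 8 rose and 1 fell (median 0.41, with 0.11 over all genes). The mitochondrial carriers SLC25A38 (glycine), SLC25A44 (branched-chain amino acids) and SLC25A29 (basic amino acids) rose by 2.67 ± 0.31, 1.82 ± 0.34 and 1.52 ± 0.30, and CD44, a membrane partner of SLC7A11, was -1.76 ± 0.36.

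DZH_2 passed 3 genes of these lists, which hold 14 to 38 measured genes each. Over all genes 0.871% passed at IC20 and 1.57% at IC50, so so small a count is not read as a trait of the lists. GSR rose by 1.22 ± 0.26 at IC20 and 1.25 ± 0.26 at IC50 (limma, adjusted p = 0.0499 and 0.0373). The lysosomal carrier SLC17A5 rose by 1.55 ± 0.31 and 2.13 ± 0.31 (adjusted p = 0.0404 and 0.00864): it read 8.59 and 8.98 at IC20 and 9.55 and 9.20 at IC50, against 7.16 and 7.32 in DMSO. GGCT, an enzyme of glutathione breakdown, was -1.89 ± 0.38 at IC50 (adjusted p = 0.0363). The ATF4 list passed no gene at either dose, with medians of -0.45 and -0.78.

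Markers of cell type also differed under both compounds. At Maraviroc IC50, where 12% of all genes rose and 15.0% fell, of 13 mesenchymal markers 8 fell and 0 rose, and the mean of the list was 8.29 and 9.17 on the Maraviroc IC50 arrays against 9.88 to 10.63 on the other 11 arrays of MDA-MB-231. Of 8 basal epithelial markers 3 fell and 0 rose (list mean 6.58 and 6.88 against 7.82 to 8.58), and of 13 epithelial junction markers 5 fell and 1 rose (6.92 and 6.93 against 7.35 to 7.85). Of 11 fibroblast markers 2 rose and 1 fell (5.82 and 6.10 against 5.64 to 6.01). The fibroblast list, in which more genes rose than fell, had a median difference of 0.14. Under DZH_2, where 0.871% of all genes passed at IC20 and 1.57% at IC50, 1 mesenchymal marker fell at IC20 and 2 at IC50, 1 basal epithelial marker fell at each dose, and 0 junction or fibroblast markers passed. CAV1, caveolin, was -1.63 ± 0.29 at IC20 and -1.69 ± 0.29 at IC50, the integrin ITGA6 -1.74 ± 0.33 and -1.68 ± 0.33, and the transcription factor SNAI2 -1.54 ± 0.30 at IC50 (limma, adjusted p from 0.0183 to 0.0337). The part of these shifts in the transporter results was not tested.

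In MCF10 the arrays carry no replicates, so only values are given. Their cell line field names MDA-MB-231, and the titles, which name MCF10, were followed. The 4 arrays also differ in their signals as a whole. The interquartile range of their log2 signals was 3.34 to 3.62, against 4.05 to 4.65 on the arrays of MDA-MB-231. The median of the positive controls was 11.02 to 11.54 against 11.99 to 12.85, and the mean of the hybridisation controls was 12.4 to 12.9. Line and array features cannot be told apart. Against the 3 DMSO and untreated arrays of MDA-MB-231, 4 of 8 basal epithelial markers were higher and 2 lower on the DMSO and untreated arrays of MCF10. Of 13 epithelial junction markers 9 were near the negative controls there, CDH1 and EPCAM among them, and 1 was higher and 4 lower. In MDA-MB-231 6 of the 13 were near them. KRT8 (14.06 and 14.30) and KRT18 (12.74 and 12.86) of this list were far above them on the DMSO and untreated arrays of MCF10. Of 13 mesenchymal markers 5 were higher and 6 lower, with ZEB2 and AKAP12 near the negative controls, and 5 of 11 fibroblast markers were higher and 1 lower. Over all genes 12.6% were higher and 23.9% lower. The mean of the fibroblast list was 8.10 to 8.52 on the 4 MCF10 arrays and 5.64 to 6.10 on the 13 arrays of MDA-MB-231. For the basal epithelial list it was 8.98 to 10.44 in MCF10 and 6.58 to 8.58 in MDA-MB-231. The lists go different ways and do not by themselves bear out a typical epithelial line. The part of cell type in the line differences was not tested.

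At DZH_2 IC50 in MCF10, 8 transporters were higher than in DMSO by at least 1 and 3 lower, where 9.38% and 8.83% of all genes were. SLC7A11 (Entrez 23657) stood highest, at 12.05 against 7.57 in DMSO, 6.55 untreated and 8.36 at IC20, a difference from DMSO of 4.48 at IC50 and 0.78 at IC20. SLC3A2, its heavy chain, read 16.11 at IC50 against 13.89 in DMSO, 14.05 untreated and 14.47 at IC20 (2.22 and 0.58). The IC50 array was the highest of the 4 in both subunits. SLC6A9 was 2.23 from DMSO at IC50 and -0.99 at IC20, SLC38A1 2.01 and 0.48, and SLC7A1 1.29 and -0.16. SLC38A7, a lysosomal glutamine carrier, was 1.44 and -0.01, SLC7A2 1.36 and -1.78, and SLC6A6 1.02 and 0.74. The 3 lower ones, SLC7A3 (-1.46), SLC6A17 (-1.25) and SLC38A5 (-1.12), ended near the negative controls. The untreated array was also lower than DMSO in these 3, by -0.45, -1.07 and -1.01.

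At IC20 in MCF10, 3 transporters were higher by at least 1 and 3 lower, where 11.6% and 12.8% of all genes were. Higher were SLC1A3 (1.72), SLC7A6 (1.32) and SLC1A2 (1.14), and lower were SLC7A2 (-1.78), SLC6A12 (-1.21) and SLC1A5 (-1.15). The untreated array differed from the same DMSO array by 1.31, -1.24 and 0.91 in the 3 higher genes. In the 3 lower ones it differed by -0.74, -0.10 and 0.02. At both doses in 1 direction there were 0, where 9.41% of all genes moved (4.52% up, 4.88% down). The untreated array differed from DMSO by at least 1 in 7 transporters, 1 higher and 6 lower, where 8.28% of all genes did (4.10% higher, 4.17% lower). With the untreated array in place of DMSO, 3 transporters were higher at both doses (5.08% of 59), where 4.56% of all genes were. In MDA-MB-231 the same contrast at IC50 gave SLC7A11 -0.52, SLC6A9 -1.08 and SLC7A1 -1.04, on 2 arrays a group, and none of these passed (limma, adjusted p = 0.735, 0.404 and 0.383).

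**Figure D4:**
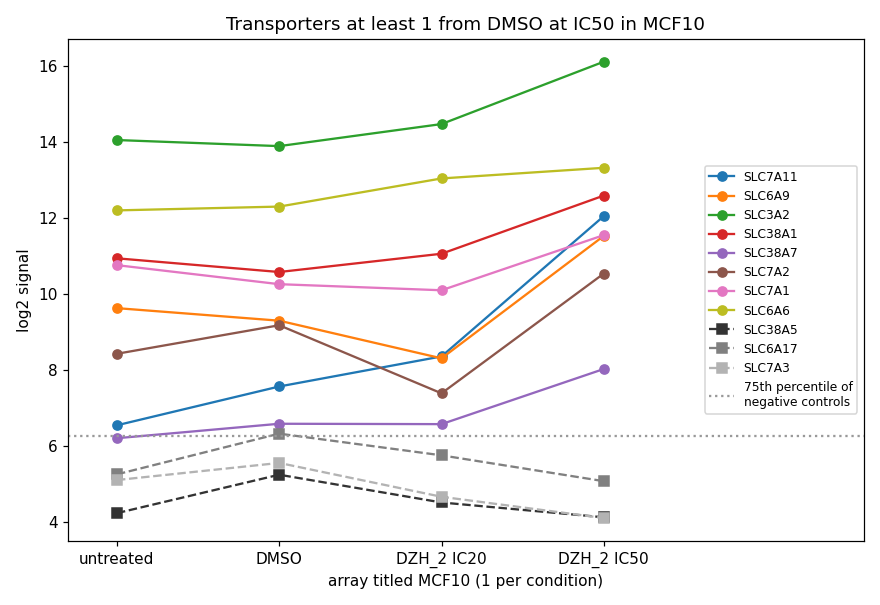
Log2 signal (vertical axis) of the 11 transporters at least 1 from DMSO at DZH_2 IC50 on the 4 arrays titled MCF10, 1 array per condition, so that there are no error bars and lines join values of a gene. Circles are genes higher at IC50 and squares genes lower, and the dotted line is the mean 75th percentile of the negative controls. SLC7A11 goes from 7.57 in DMSO to 12.05, and the 3 squares lie under the dotted line at IC50.

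Without drug the lines differed in 16 transporters by at least 1 with no overlap of the 2 MCF10 and 3 MDA-MB-231 control arrays, where 36.5% of all genes did. In MCF10, 5 were higher and 11 lower (12.6% and 23.9% of all genes). These counts depend on the scaling: quantile normalization gave 11 higher and 10 lower, and centred arrays 18 higher and 10 lower. Centring moves all genes, since the array medians were 6.65 and 6.64 in MCF10 and 7.04 to 7.08 in MDA-MB-231. The shares of all genes under these scalings are not given here, so the counts show nothing particular to the transporters. SLC7A11 showed the largest difference, with 7.57 and 6.55 in MCF10 against 13.91, 13.26 and 13.58 in MDA-MB-231, a difference of -6.52. SLC6A8 was the other way, at 13.19 and 12.84 against 7.28, 7.59 and 7.97, a difference of 5.40. In these 2 genes the gap between the lines was many times the spread within either.

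SLC38A1 read 10.58 and 10.94 in MCF10 against 15.28, 14.64 and 14.76 (-4.13). SLC1A4, SLC7A1 and SLC1A5, carriers of small neutral and cationic amino acids, were -3.47, -3.24 and -2.34. SLC38A9 was -3.22, and at 5.40 and 4.06 it was near the negative controls in MCF10 while above them in MDA-MB-231. The leucine carriers SLC43A1 and SLC7A5 were -2.87 and -1.57. Also lower were SLC43A3 (-2.19), SLC38A4 (-1.78, near the negative controls in both lines) and SLC6A9 (-1.34). SLC6A15 was 2.43 higher in MCF10, above the negative controls in MCF10 only. SLC6A16, SLC7A13 and SLC6A17 were 1.48, 1.30 and 1.03 higher. SLC7A13 was near the negative controls in all groups. SLC6A16 and SLC6A17 were near them in MDA-MB-231 and varied in MCF10. For SLC6A17 the difference was 1.70 between the DMSO arrays and 0.21 between the untreated arrays. SLC3A2 read 13.89 and 14.05 against 15.23, 14.35 and 15.21, a difference of -0.96 that did not reach 1. SLC38A2 (0.25) and SLC6A6 (-0.29) were close in the lines.

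**Figure D5:**
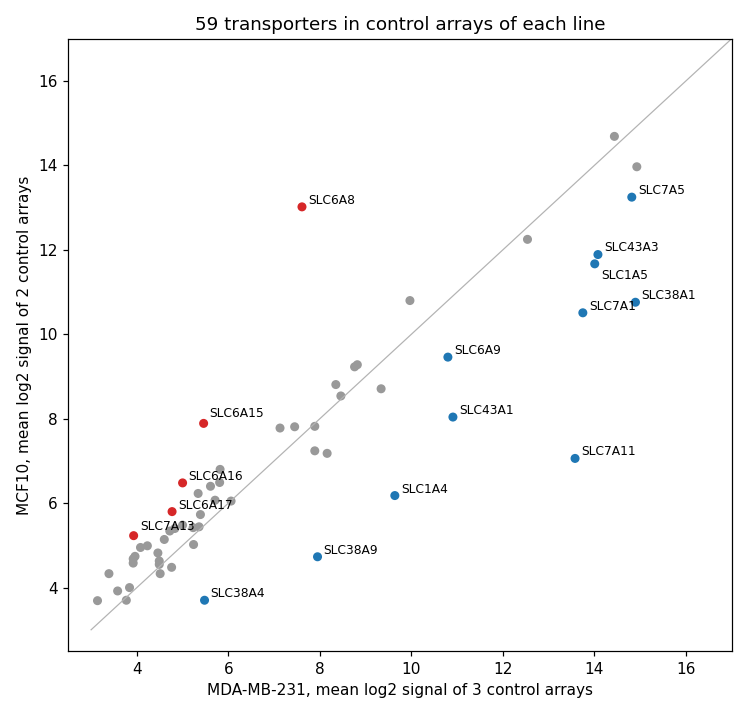
Mean log2 signal of the 59 transporters on the 3 DMSO and untreated arrays of MDA-MB-231 (horizontal axis) and the 2 of MCF10 (vertical axis), with the line of equal signal. Red points are higher and blue points lower in MCF10 by at least 1 with no overlap of arrays. SLC6A8 (7.61 and 13.02) and SLC7A11 (13.58 and 7.06) lie farthest from the line.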

How the data were processed

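Expression was measured on 17 Affymetrix arrays, from 5.5 ug of total RNA extracted with Trizol and prepared with a WT PLUS kit, per the labels' protocols. The values deposited by the authors are log2 signals of 24351 probe sets. How they were summarised, background-corrected and normalized was not given in the sources used here, and the values were used as deposited. Of the probe sets, 17709 had exactly 1 gene symbol by Entrez identifier, giving 17687 genes, with the brightest probe set kept for 20 genes with several. The sources used here did not give the array's genome build. Coordinates are printed only for the promoter windows of the RefSeq table (GRCh38.p14), with which the array values were matched by symbol. Groups were taken from the titles.

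A single limma model (version 3.58.1, in R 4.3.3 with data.table at 1.17.8) took the 12 arrays of MDA-MB-231 that have a replicate, with a mean for each of 6 groups and 6 residual degrees of freedom. The 9 comparisons were tested 2-sided with Benjamini-Hochberg adjustment over all genes and a threshold of 0.05. Standard errors (±) are limma's. Groups of 1 array were described by values, with a difference of 1 as the mark. The step was tested on simulated data. The number of arrays limits the precision.

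The named transporters are those past the threshold in a comparison, the 3 with the smallest p where fewer than 3 passed, and those past the mark in MCF10 or between lines, with up to 4 genes per companion list. The transporters and the lists were chosen with earlier results of these data known. Alternatives were quantile normalization, median centring, a filter on low signal, averaged probe sets, a replicate block, other sets of arrays in the fit, array weights, pooled controls, and leaving out each array.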

Additional observations from a re-analysis of the deposited data

Results flagged for a closer look

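Under DZH_2 IC50 relative to DMSO, 4 of 59 transporters (6.78%) differed one way by at least 1 on the MCF10 array, while both MDA-MB-231 arrays lay on the other side of their DMSO arrays. The same held for 4.13% of all genes at IC50. At IC20 it held for 0 transporters and 5.96% of all genes. SLC7A11 was 4.48 in MCF10 and -0.52 in MDA-MB-231, where the nearest DZH_2 and DMSO arrays read 13.25 and 13.26. SLC6A9 was 2.23 and -1.08, and SLC7A1 was 1.29 and -1.04. SLC38A5 was -1.12 and 0.18, with all values near the negative controls, and the untreated MCF10 array was -1.01 from DMSO. None of the 4 passed in MDA-MB-231 (limma, adjusted p = 0.735 for SLC7A11, 0.404 for SLC6A9, 0.383 for SLC7A1 and 0.835 for SLC38A5). The difference between the lines was not tested in any of them, since MCF10 has 1 array a condition.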

How the results depend on the processing

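No transporter past the threshold changed direction under any alternative. The count of transporters past the threshold at DZH_2 IC20, which was 1, became 0 after quantile normalization, 0 with the replicate number as a block, 0 to 0 when each array was left out in turn, and 2 against all 5 control arrays. At DZH_2 IC50 the count of 0 became 1 with the filter on low signal, 2 without the Maraviroc IC50 arrays, 3 in a fit of the groups compared alone, 3 with array weights and 2 against all 5 control arrays. At Maraviroc IC50 against ethanol the 11 became 5 in a fit of the groups alone, 6 with array weights and 20 against all 5 control arrays, and 8 to 11 when each array was left out. Against IC20 the 11 became 6 with array weights and 5 to 14 when each array was left out, 5 being without Maraviroc IC20 replicate 1. The 2 differences between the compounds at IC50 became 1 to 3, with 1 left without DMSO replicate 2. In MCF10 the 0 at both doses became 3 against the untreated array and 2 after quantile normalization, and the 16 between the lines became 28 on centred arrays. These are counts of transporters, and the share of all genes under each alternative is not given beside them. The causes of these shifts were not tested, apart from the smaller number of arrays in fits that leave some out.

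Replicate numbers were checked as pairs. Same-numbered arrays of different groups deviated from their group means with correlations of -0.15 to 0.30 over the 15 pairs of groups. The correlation was over 0.1 in 3 of the pairs: the doses of DZH_2 (0.30) and ethanol with Maraviroc IC20 (0.25) and with IC50 (0.12). As it was not in the other 12, pairing was not shown over all groups. With the replicate block, limma called 11 transporters at Maraviroc IC50 against ethanol, 11 against IC20, 2 between the compounds at IC50 and 0 in the 6 other comparisons. The shares of all genes called with the block are not given here, so these counts show nothing particular to the transporters.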
